A study of Bos taurus with 2 samples.

Results

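Chromosome 23 of cattle carries the genes of the major histocompatibility complex (MHC), and its H3K4me3 peaks in longissimus dorsi (LD) muscle are described here. Its members are all peaks that the deposited lists place on chromosome 23, with tender and tough peaks joined into 1 region where they overlapped by at least 1 bp. The tender list holds 12930 peaks, 410 of them on chromosome 23, and the tough list 11535, with 362 there. Joined, they made 464 of 14264 merged regions. The samples were LD of purebred Aberdeen Angus steers of about 12 months, sorted by the Warner-Bratzler shear force (WBSF), a measure of how hard cooked meat is to cut. The tender group had a WBSF of 6.77 ± 0.56 kg and the tough group 19.93 ± 0.39 kg, as the labels give them. Chromatin of 4 tender steers was pooled for 1 library and that of 5 tough steers for another, and each pool was then digested to mono-nucleosomes and precipitated with an H3K4me3 antibody (Millipore). All steers came from 1 closed herd, and the labels name no treatment. Each group being 1 library, the comparisons below have no replicates and describe these libraries without a test. Pooling also hides how single steers differed.

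H3K4me3, trimethylated lysine 4 of histone H3, is found around the start sites of active genes, and a peak marks a stretch of DNA that the antibody enriched. The MHC, called BoLA in cattle, encodes the molecules that show peptides to T cells. Class I molecules are made by nearly all nucleated cells, muscle fibers at low levels, while class II molecules are mainly made by immune cells such as macrophages and B cells. In cattle an inversion moved some of the class II genes away from the others, so the complex lies in separate stretches of the chromosome.

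RefSeq (ARS-UCD2.0) lists 24 MHC genes of the list used here on chromosome 23, in 5 runs. The first run holds 10 genes from BOLA-DYA to BOLA-DOA. Among them, TAP1 and TAP2 carry peptides to class I molecules, PSMB8 and PSMB9 are proteasome subunits that cut such peptides, and BOLA-DMA and BOLA-DMB help to load class II molecules. After 240 other protein-coding genes comes a run of 7 genes of the DQ and DR molecules, the main class II molecules, ending with BOLA-DRA. After 28 more follow the complement genes C4A, CFB and C2, after 31 more the cytokine genes TNF and LTA, and after 41 more the class I genes BOLA-NC1 and BOLA. The table belongs to another build than the peak lists, and no sequence or annotation of their build was used here. No region was therefore assigned to a gene, and the LD origin of the samples could not be checked at muscle genes.

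Chromosome 23 had more H3K4me3 regions per length than most autosomes. It held 8.86 merged regions per Mb, against 5.48 over the other 28 autosomes together and a range of 2.66 to 15.3 among them. In this order it was number 4 of 29, after chromosomes 19 (15.3), 25 (13.0) and 18 (12.6) and before chromosomes 7 (7.24) and 22 (7.14). The last peak of a chromosome was taken as its end. With 3.34% of the autosomal regions on 2.09% of the length, the density was 1.62 times that of the other autosomes (95% exact binomial interval 1.47 to 1.77, which covers counting error only and treats neighbouring regions as independent). Of the autosomes within 10% of its length, chromosome 29 had 6.97 and chromosome 26 had 5.52 regions per Mb. Each library taken alone gave the same place, with 7.83 tender and 6.92 tough peaks per Mb. Regions covered 2.49% of chromosome 23 and 1.57% of the other autosomes.

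**Figure D1:**
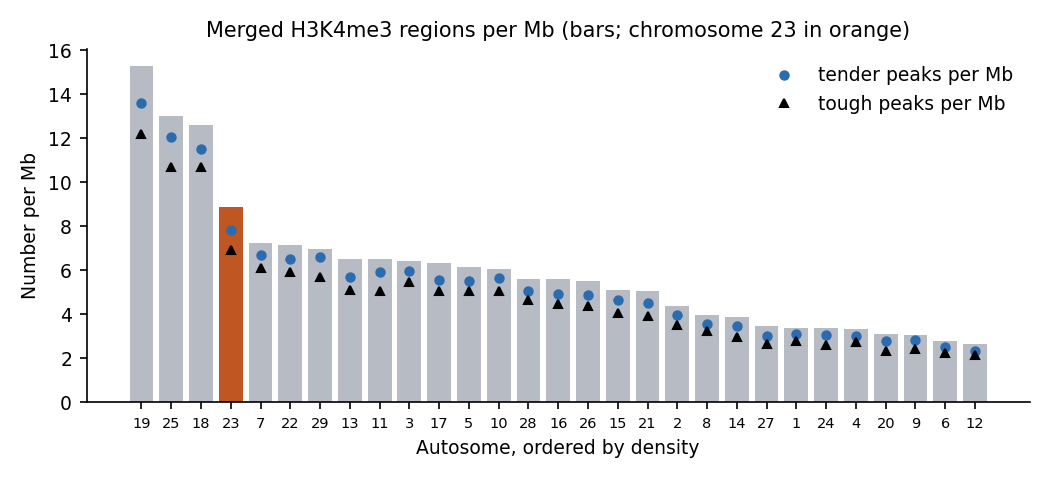
Merged H3K4me3 regions per Mb (bars, chromosome 23 in orange) with the tender peaks (circles) and tough peaks (triangles) per Mb, for the 29 autosomes in order of density. Chromosome 23 stands in place 4 with 8.86 regions per Mb, between chromosome 18 at 12.6 and chromosome 7 at 7.24.

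The mark was spread in blocks along the chromosome. Between neighbouring regions the median distance was 31200 bp (quartiles 9600 and 88300 bp), against 48000 bp on the other autosomes. Of the 463 distances, 117 (25.3%) were under 10 kb, while 8 were 1 Mb or longer and together made up 27.7% of the length. The other autosomes, most of them longer, had a median of 14.5 such gaps, and 40.4% of their length lay in them. Per 10 Mb there were 1.53 gaps on chromosome 23 and 1.90 on the others together. Of the autosomes close in length, chromosome 26 also had 8 and chromosome 29 had 11. Of 52 full bins of 1 Mb, 7 (13.5%) held no region, against 21.8% elsewhere. These were the first 2 Mb, the bins from 4000001 to 6000000, and those starting at 23000001, 34000001 and 46000001.

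The widest gap ran from 3444001 to 6282400 (2.84 Mb). It was followed in width by 33077601 to 35827000 (2.75 Mb), 22042601 to 24300000 (2.26 Mb), 45372401 to 47010400 (1.64 Mb) and 25459001 to 26944400 (1.49 Mb). The 8 gaps divided the regions into 9 blocks that differed in density. The fullest 1 Mb bins lay in blocks 2, 5 and 6, from 27000001 to 28000000 (42 regions, 12.9% of the bin covered), 31000001 to 32000000 (33), 7000001 to 8000000 (28), 17000001 to 18000000 (25) and 28000001 to 29000000 (23).

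Block 1 opened the map at 2405201 and held 11 regions in 1.04 Mb, with a highest score of 100.6 in tender and 74.7 in tough. Block 2, from 6282401 to 20598800, was the longest with 191 regions, 41.2% of the chromosome's total, at 13.3 per Mb. It held 11 clusters and the highest-scoring peak of each group. Block 3 was a pair of regions from 21979401 to 22042600 with a gap of over 1 Mb on each side. In both regions each library had a peak. Block 4, from 24300001 to 25459000, held 16 regions. Of these, 11 had a peak in both libraries and 5 in tender alone.

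Block 5, from 26944401 to 28755800, was the densest block, with 68 regions in 1.81 Mb or 37.5 per Mb. It had the highest median score of the 9 blocks in both libraries, 69.1 in tender and 72.7 in tough, against 54.7 and 53.8 over the whole chromosome. Block 6, from 29838401 to 33077600, held 69 regions at 21.3 per Mb, and its peaks were short, with a median of 1600 bp in tender and 1800 bp in tough. Blocks 2, 5 and 6 together held most of the regions.

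Towards the end of the chromosome the map was thinner. Block 7, from 35827001 to 37878200, held 10 regions at 4.88 per Mb. Block 8, from 38924001 to 45372400, held 48 regions, of which 11 had a tough peak alone and 9 a tender peak alone. Over the chromosome, 102 of the 464 regions had a tender peak alone and 60 a tough peak alone. In the other blocks tender-only regions were as many or more, but the order in block 8 rests on few regions. Block 9, from 47010401 to the last region end at 52346800, held 49 regions. Of these, 25 had a peak in both libraries, 16 in tender alone and 8 in tough alone.

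**Figure D2:**
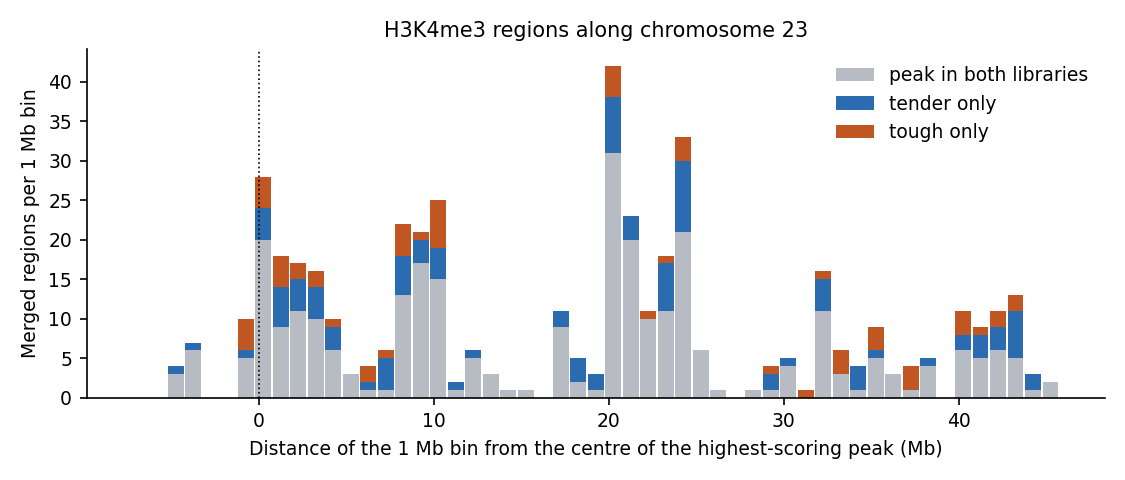
Merged regions per 1 Mb bin along chromosome 23, split into regions with a peak in both libraries (grey), in tender alone (blue) and in tough alone (orange), against the distance of the bin from the centre of the highest-scoring peak. The fullest bin, about 20 Mb to the right of that peak, held 42 regions, and 7 of the full bins held 0.

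Many regions lay in clusters, defined as at least 5 regions with no more than 50 kb between neighbours. There were 22 clusters with 193 regions (41.6%), against 32.8% on the other autosomes, and they spanned 5.77% of the length. Per 10 Mb there were 4.20 clusters, number 4 of the 29 autosomes, against 2.09 on the others. The largest, from 27205401 to 27601400, held 26 regions in 396 kb, 23 of them in both libraries and 3 in tender alone. Its peaks had a median score of 94.5 in tender and 85.9 in tough, and they covered 20.4% of it with a median distance of 8600 bp. In the 21 pairs that could be counted (the way is given below) there were 682 tender and 687 tough reads. The stretch from 26 to 32 Mb held 8 of the 22 clusters and 100 of their 193 regions.

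The next cluster, from 31441401 to 31709000, differed from it. It held 21 regions, of which 11 were in both libraries, 9 in tender alone and 1 in tough alone, and its median score was 34.5 in tender and 43.8 in tough. In its 10 pairs of peaks the libraries had 183 tender and 192 tough reads, which for the depth of the libraries is 1.11 times as many in tender (95% exact interval 0.902 to 1.37). Over all counted pairs of the chromosome this ratio was 1.18, inside that interval. Over all clusters, 37 of 193 regions had a tender peak alone, and the median tender score was 62.4. The cluster's median tender score was lower, but it includes the 9 peaks found in tender alone. Its pairs had about the chromosome's ratio of reads, which does not cover these 9 regions. The cause of the 9 of 21 was not tested.

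Clusters from 16926601 to 17264400 and from 28087401 to 28300800 held 14 regions each, and the one from 29838401 to 29946200 held 11. Of these, 11, 13 and 10 regions had a peak in both libraries. Their counted pairs held 334 tender and 334 tough reads, 272 and 260, and 250 and 238. The densest cover was in a smaller cluster from 7387601 to 7436000, where 7 regions filled 48.8% of 48.4 kb. Over all clusters, 67.4% of the regions had a peak in both libraries (95% Wilson interval 60.5 to 73.6%), and outside them 63.5% did (57.6 to 69.0%). The intervals overlap. Median scores were 62.4 in tender and 63.2 in tough inside clusters, and 53.2 and 49.5 outside.

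The highest score lay in block 2. A SICER score adds up, over windows of 200 bp, how unlikely the number of reads was given the library's mean, so it rises with the reads and the width of a peak. The peak from 7233801 to 7242800 had a score of 665.9 in tender and 505.8 in tough (there from 7233601 to 7242400), the highest of the chromosome in both and number 5 and number 7 of the whole lists. It was about 9 kb wide in both, and its score was 1.32 times as high in tender. The highest score on the other autosomes ranged from 219 to 2372 in tender and from 182 to 1125 in tough.

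Block 5 held 3 of the 4 tender peaks that came next. The tender peak from 27330401 to 27335000 scored 396.9, while the tough peak over it scored 180.6 at nearly the same width (4600 and 4400 bp). It was the pair with the highest ratio of scores, 2.20, of the 18 pairs in which at least 1 peak scored over 180. The peak from 27054601 to 27059000 scored alike, 312.2 in tender and 310.4 in tough, where it was 5600 bp wide instead of 4400 bp. That from 27034201 to 27037600 scored 296.8 in tender and 152.9 in tough.

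In tough the second highest score was 330.3, from 28175201 to 28182200, where the tender peak reached 240.3. The peak from 14984801 to 14990000 had 247.0 in tough and 263.4 in tender. Another wide peak, from 17841801 to 17852400 in tough, was the widest of the chromosome with 10600 bp and a score of 226.9, and the tender peak within it was 7000 bp wide with a score of 290.4. Of the 18 pairs with a score over 180, the tender score was the higher in 16, with a median ratio of 1.30, against 600 of 756 pairs and 1.34 on the other autosomes. The scores are not scaled for depth, and the same reads score lower in the deeper tough library.

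**Figure D3:**
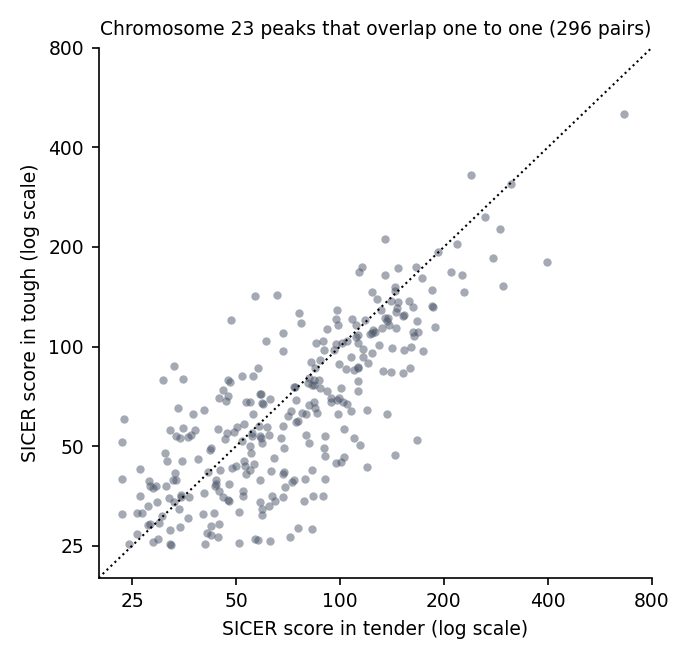
SICER score in tender (x) and in tough (y), both on log scales, of the 296 pairs of peaks on chromosome 23 that overlapped one to one, with the line of equal scores dotted. The tender score was the higher in 189 pairs, and the pair at the upper right (665.9 and 505.8) has the highest scores of the chromosome.

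Scores on chromosome 23 as a whole were slightly lower than elsewhere. The tender median was 54.7 (quartiles 33.1 and 96.9), against 60.3 over the other autosomes, and the tough median was 53.8 (34.9 and 89.1), against 58.3. Among the 29 autosomes these were number 23 and 24 from the top, while the density of regions was number 4. A score over 180 was reached by 17 tender peaks (4.15%) and 10 tough peaks (2.76%), against 6.20% and 3.52% elsewhere.

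Tough peaks were wider than tender ones, as over the rest of the genome. The median width was 2000 bp in tender (quartiles 1400 and 2600) and 2500 bp in tough (1600 and 3400), against 2000 and 2400 bp on the other autosomes. At least 5 kb wide were 14 tender (3.41%) and 31 tough peaks (8.56%), against 2.94% and 6.87%. Among the 296 pairs the tough peak was the wider in 177 (59.8%), the tender peak in 82 (27.7%), and 37 had equal widths. The tough peak was wider by a median of 400 bp (95% interval of the median 200 to 400 bp), against 200 bp over the other autosomes together. Widths come in steps of 200 bp, and on 13 of the other autosomes the median was also 400 bp.

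Pairs with a much wider tough peak were frequent on this chromosome. In 50 of 296 pairs (16.9%, 95% Wilson interval 13.1 to 21.6%) the tough peak was at least 2 times as wide, where 12.9% of all pairs in the genome were. This was the highest share of the 29 autosomes, whose range elsewhere was 4.96 to 15.9%, a rank given without a test. The interval starts just above the genome's share, covers counting error only and does not allow for the choice among 29 autosomes. The reverse, a tender peak at least 2 times as wide, was seen in 9 pairs (3.04%), against 3.26% of all pairs.

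The 50 pairs had a median width of 1300 bp in tender and 3200 bp in tough. The reads could be counted in 49 of them, with a median of 18 in tender and 24 in tough, and per kb of peak the tender median was 15.0 and the tough median 7.63. Divided by the depth, the median ratio of tender to tough reads was 0.891, and 3 of the pairs had at least 2-fold more reads in tough. Reads per kb are divided by the width that chose these pairs, so their difference is a description. The pairs were not tied to clusters, with 23 of 128 pairs in clusters (18.0%) and 27 of 168 outside (16.1%). The most unequal pair had a tender peak of 600 bp from 17210601 to 17211200 (9 reads) within a tough peak of 3400 bp from 17208801 to 17212200 (15 reads). The next had 1200 bp from 10354801 to 10356000 (21 reads) within 5800 bp from 10352401 to 10358200 (42 reads). A reverse case was the tender peak from 41389801 to 41396800, 7000 bp wide with a score of 188.8, over a tough peak of 3400 bp with a score of 114.3.

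Pairs with a tough peak at least 2 times as wide were found along most of the chromosome. In stretches of 5 Mb they made up 8 of 45 pairs from 5 to 10 Mb, 9 of 50 from 15 to 20 Mb, 11 of 63 from 25 to 30 Mb and 5 of 38 from 30 to 35 Mb. The share was highest from 45 to 50 Mb, with 6 of 20 pairs (30%), although there the tender peak was the wider by a median of 200 bp and the median ratio of tender to tough reads was 1.39. In the first 5 Mb it was 0 of 9. Few pairs stand behind each of these shares.

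**Figure D4:**
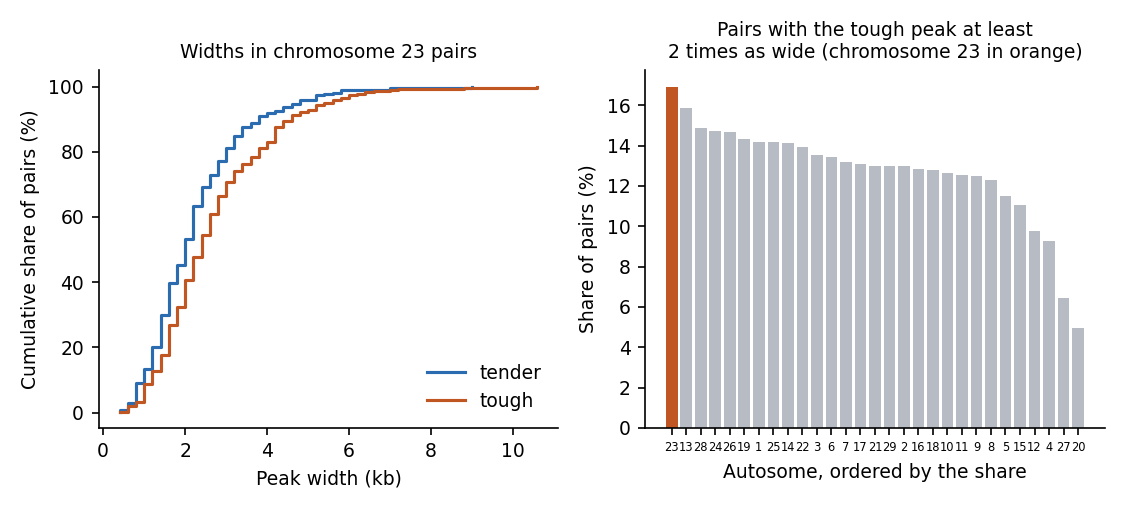
Left, cumulative share of the 296 chromosome 23 pairs by the width of their tender (blue) and tough (orange) peak. Right, share of pairs with the tough peak at least 2 times as wide on each of the 29 autosomes, where chromosome 23 is highest with 16.9%.

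Peaks without a counterpart in the other library were weak. In tender, 102 of 410 peaks (24.9%, 95% Wilson interval 20.9 to 29.3%) had no tough peak over them, and genome-wide 21.9% of the tender peaks did. In tough 60 of 362 (16.6%, 13.1 to 20.8%) had no tender peak, and genome-wide 13.9%. Both shares were above the genome's, but their intervals include it. The order of the groups turned when the tender list was shortened to its highest-scoring peaks, as many as the tough list holds, to 18.6% in tender and 19.3% in tough. The median score was 29.1 without and 69.3 with a counterpart in tender, and 30.2 and 62.7 in tough. They held a median of 12 reads in tender (8 to 23) and 14 in tough (9 to 57).

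Of the 118 tender peaks in the lowest score quartile of the whole list, 70 (59.3%) had no counterpart, and of the 92 in the highest quartile 0 lacked one. In tough it was 52 of 109 (47.7%) in the lowest and 1 of 88 in the highest quartile. On the other autosomes the lowest quartiles had 60.6% in tender and 42.3% in tough. The regions found in 1 library lay both in clusters (37 of 102 in tender, 26 of 60 in tough) and outside.

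The tough peak from 13859401 to 13867000 stood apart. It was 7600 bp wide, held 57 reads and scored 141.2, with no tender peak over it, and it was the highest-scoring peak without a counterpart in tough on the 29 autosomes. On the other autosomes the highest such score was 96.4. The reads were thinly laid, at 7.5 per kb, against a median of 10 for tough peaks of the chromosome. Since the tender list holds peaks rather than reads, the tender reads in this stretch are unknown.

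Other tough peaks without a counterpart were much weaker. They lay from 27070401 to 27075800 (65.9, 31 reads), 17641401 to 17643600 (63.8, 26 reads), 6400601 to 6405600 (42.0, 21 reads) and 27039601 to 27043000 (40.9, 19 reads). The 5 highest-scoring ones of tender were 600 to 2000 bp wide, though others just below them in score were wider, such as 47506801 to 47512000 with 5200 bp and a score of 53.7. The 5 lay from 16926601 to 16927400 (score 75.9, 23 reads), 30178601 to 30179600 (61.2, 21 reads), 36298401 to 36300400 (59.2, 22 reads), 49837401 to 49838000 (58.6, 18 reads) and 10268601 to 10270400 (55.1, 20 reads).

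The reads in most peaks could be worked out from the scores. Unscaled, they were alike in the libraries, and for the depth the pairs had more reads in tender. The scores gave a mean of 0.157 reads per window in tender and 0.182 in tough, so the tough library was 1.17 times as deep. A number of reads followed for the 393 tender and 352 tough peaks of chromosome 23 with a score up to 180. The median was 20 reads in tender (quartiles 13 and 31) and 22 in tough (15 and 33). Both peaks were counted in 278 pairs, with 7490 tender and 7422 tough reads. Divided by the depth, tender had 1.18 times the tough reads, and over all autosomes 1.195 times (0.26 on the log2 scale). The median ratio of a pair was 1.196 on chromosome 23 and 1.17 on the other autosomes. Summed over pairs, the ratio lay between 1.15 and 1.26 on each of the other autosomes. With 1 precipitation per group, a difference between the libraries cannot be told apart from one in the muscle. Nor can more cells with the mark and more mark per cell be told apart in such pooled muscle. The cause was not tested.

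At least 2-fold more reads for the depth were found in tender in 19 of the 278 pairs (6.83%), and in 6.05% of all pairs of the genome. In tough they were found in 3 pairs (1.08%), and in 0.759% of all pairs. Both shares were near those of the genome. When the libraries were scaled to equal reads in the pairs of all autosomes instead of by depth, the numbers became 5 and 9, so the direction with more such pairs turned with the scaling.

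The most unequal pairs were of moderate size. The tender peak from 16436601 to 16438600 held 52 reads and the tough peak over it 21, a ratio of 2.89 (95% exact interval 1.71 to 5.04, counting error only). That from 9418001 to 9423600 held 46 tender and 19 tough reads (2.82, 1.62 to 5.10), and here the tender peak was 5600 bp wide and the tough one 2800 bp. Ratios of 2.62, 2.48 and 2.44 followed for the tender peaks from 30267401 to 30269600 (27 and 12 reads), 39133001 to 39135800 (34 and 16) and 17033801 to 17036200 (46 and 22).

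In the other direction the tough peak from 42721001 to 42724000 held 30 reads and the tender peak 11, or 2.34 times as many for the depth (1.14 to 5.18). The tough peaks from 15710201 to 15715600 (37 and 14 reads) and from 16601201 to 16605400 (36 and 14 reads) gave 2.27 and 2.21. In these 3 pairs the tough peak was also more than 2 times as wide as the tender one, so the reads were counted over unequal lengths.

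**Figure D5:**
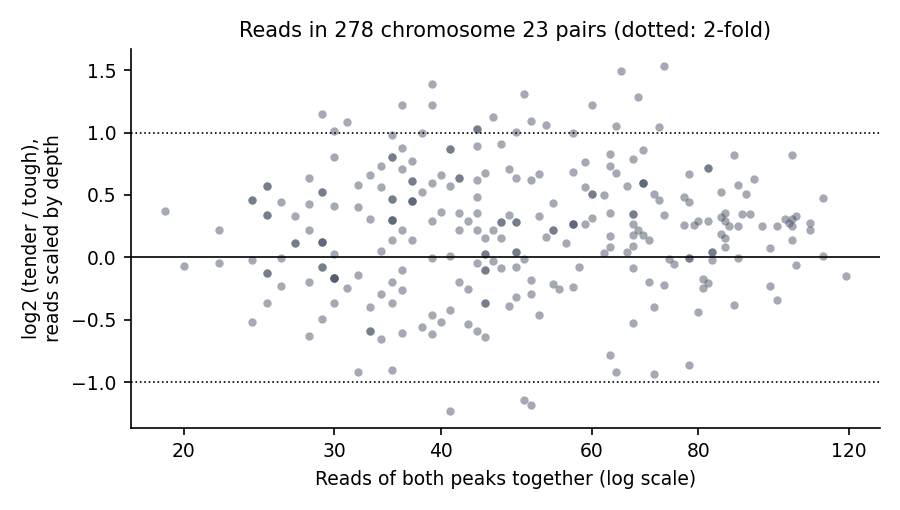
Ratio of tender to tough reads, scaled by depth, on a log2 scale, against the reads of both peaks together (log scale), for the 278 chromosome 23 pairs in which both were counted. Beyond the dotted lines of 2-fold lie 19 pairs on the tender and 3 on the tough side, most points lie above 0, and no pair reached 3-fold.

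Of the 362 tough peaks, 6 lay over more than 1 tender peak, against 254 of 10915 on the other autosomes. Of the 410 tender peaks, 0 lay over more than 1 tough peak, against 106 of 12197. The tough peak from 28103201 to 28109000 (62 reads) covered tender peaks from 28103601 to 28106800 (40 reads) and from 28107401 to 28109000 (22 reads). The one from 16153001 to 16158600 (44 reads) covered tender peaks of 17 and 21 reads, and that from 20596001 to 20598400 (30 reads) tender peaks of 10 and 19.

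The densest peaks by reads per kb, chosen after their values had been seen, were short, and most of them lay in blocks 5 and 6. The tender peak from 31002601 to 31003400 held 40 reads in 800 bp, or 50 per kb, and the tough peak over it 39 reads in 2400 bp. At 28754801 to 28755200, the last region of block 5, tender had 18 reads in 400 bp. The peak from 28140201 to 28140800 had the same borders in both libraries and held 24 tender and 20 tough reads. In tough the densest peak ran from 30312001 to 30312400 with 19 reads in 400 bp, and tender had 21 reads in 800 bp over it.

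A second pair of lists that the authors deposited for the same libraries gave similar counts. These lists end at 87.9 Mb on chromosome X, where the lists used above end at 148.8 Mb, so the builds differ and positions of the pairs of lists cannot be set against each other. In the second pair chromosome 23 had 398 tender and 366 tough peaks in 454 regions, 8.51 per Mb, and was again number 4 of 29. It had 23 clusters and 8 gaps of 1 Mb or more. The gaps were not the same set, however. By order, the second pair lacked the gap of 1.49 Mb that parts blocks 4 and 5 in the lists used above. It had no gap of 1 Mb or more between its gaps from 23181401 to 25071800 and from 28926001 to 30026400. The split between blocks 4 and 5, and with it the density of block 5, thus depends on the lists. The start of the map differed, too. In the second pair the first region began at 57801, 3 regions lay before 3 Mb, and a gap of 2.85 Mb followed from 189201. In the lists used above the first region began at 2405201, so the empty first 2 Mb depend on the lists. The tough peak was at least 2 times as wide in 48 of 284 pairs (16.9%), against 13.1% elsewhere, and this was again the highest share. There, too, a tough peak of 7600 bp (58 reads, score 145.0) had no tender counterpart. The second lists come from the same libraries and are not a replicate.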

How the data were processed

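H3K4me3 was measured by ChIP-Seq in 1 pooled LD library per group. By the methods, the authors aligned reads to bosTau4 with Maq, allowed 1 mismatch, removed duplicate and multiply aligned reads, and called peaks with SICER (version 1.1 in the submitters' processing notes) with a window of 200 bp, a gap of 400 bp and an E-value of 100. The deposited values are SICER scores per peak, not scaled for depth and without a control library. Lists with chromosome X up to 148.8 Mb were used, whose build is not given in the sources used here, and a second pair of lists with X up to 87.9 Mb served as an alternative. The study's peak totals are those of the second pair, so its stated alignment may apply to that pair, and how reads were aligned for the lists used is not given in the sources used here. Positions count from 1.

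Reads per peak were computed from scores up to 180 (tolerance 1.5e-09), where each score had 1 solution given the library's mean reads per window, itself solved from peaks of 1 window. Ratios were divided by the mean reads per window. Counts are from few reads per peak, and intervals (Wilson, exact binomial) cover counting error only. No test was run, and no p-value was computed. Named regions are the 5 highest-scoring peaks per group with and without a counterpart, the 3 widest, up to 5 pairs past 2-fold per direction with at least 20 reads, the 5 largest clusters and gaps, the 5 fullest and all empty bins, and 3 split peaks. Members, lists and thresholds were chosen with earlier results of these data known. The computations were tested on simulated data. They used Python 3.11.15, matplotlib 3.10.9, scipy 1.17.1, pandas 2.3.3 and numpy 2.4.6. The study's gene expression arrays were not used here. Alternatives covered scores, overlap, scaling, thresholds and lists.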

Additional observations from a re-analysis of the deposited data

Results flagged for a closer look

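In the second pair of lists, which the comparisons above do not use, a narrow peak on chromosome 23 had a tough score of 249.0. It ran from 23180401 to 23181200 in tough (800 bp, 62.2 per window, number 5 of the chromosome) and from 23180401 to 23181400 in tender (score 137.5, 38 reads), positions of those lists. On chromosome 23 of the lists used above, no tough peak as narrow scored near 249.0. The peak was flagged because it is a signal in data outside the main measurement, and its part in any difference between the groups was not tested.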

How the results depend on the processing

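Of 41 alternatives over 9 results, 26 stayed within the counting interval of a value, or within 1.5 times a count, and 15 did not. The density of chromosome 23 stayed between 1.51 and 1.68 times that of the other autosomes in all alternatives tried. Of the peaks with at least 2 times the lowest score, 5.02% in tender and 1.52% in tough had no counterpart in the other group's full list. With weak peaks, those under 2 times the lowest score, left out of both lists, there were 13 gaps of 1 Mb or more instead of 8. The tender list shortened to the length of the tough list gave 18.6% for tender and 19.3% for tough, which turns their order, and an overlap of 50% of both peaks gave 40.7% and 32.9%. Pairs past the limit numbered 63 in tender and 17 in tough at 1.5-fold, 0 and 0 at 3-fold, and 5 and 9 when scaled by the reads in all pairs. In the second pair of lists, added after seeing the data, there was 1 such tough pair at 2-fold instead of 3. Clusters fell from 22 to 14 with gaps up to 25 kb and to 13 with tough peaks alone. The causes were not tested, apart from stricter thresholds leaving fewer peaks or pairs. Without the weak peaks, also added later, the tough peak was at least 2 times as wide in 13.5%, against 9.51% elsewhere. No paired analysis was possible because each group has 1 library. At a median of about 20 reads per peak, modest differences in a single pair are not detectable.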
